A study of Arabidopsis thaliana with 33 samples.

Results

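Narrow H2A.Z regions of wild-type (WT) Arabidopsis thaliana shoots that carried no H2A.Z peak in arp6 are described here. The peaks of both WT replicates were merged, and 8158 merged regions held a peak of each replicate. The regions described were chosen by 3 readouts of the H2A.Z peak lists: a peak in both WT lists, a merged width under 2000 bp, and no overlap of even 1 bp with a peak of either arp6 replicate. They numbered 4662, or 57.1% of the 8158 regions. The count rested on WT replicate 1, whose list is the shorter: without it the rule gave 10736 regions. They are called members below. Another 2140 narrow regions (26.2%) overlapped an arp6 peak. The broad regions of at least 2000 bp comprised 537 without an arp6 peak (6.58%) and 819 with one.

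H2A.Z is a variant of histone H2A that the SWR1 complex, of which ARP6 is a subunit, exchanges into nucleosomes, often near the start of genes and over genes with changing activity. BRAHMA (BRM) is the ATPase of a SWI/SNF complex, which slides or evicts nucleosomes. Micrococcal nuclease (MNase) digests the linker DNA between nucleosomes, so that sequenced fragments mark where nucleosomes lie and how well placed they are.

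The mutants were arp6-1, brm-1 and the combined mutant arp6-1;brm-1, called arp6, brm and arp6;brm below, each set against WT. Plants were grown on soil in 16 h light and 8 h dark, and shoot tissue was staged by leaf number (4-5 leaves). H2A.Z chromatin immunoprecipitation (ChIP) was made in 2 replicates each of arp6, brm and WT. MNase-seq covered arp6, brm, arp6;brm and WT, and the authors compared 1 pooled data set of each mutant with that of WT. Nuclear RNA-seq had 3 libraries per genotype. Genomic DNA from rosette leaves of 50 pooled arp6 plants gave a list of 1545 deletion calls. All comparisons with WT share the same WT data. The submitters call the replicates biological. The MNase-seq and RNA-seq tables hold no value per library, so their depth and the spread between replicates are unknown, and intervals below cover counting error alone. In this bulk tissue, fewer cells of a type and less signal per cell cannot be told apart.

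In nuclear RNA, ARP6 was at a log2 fold change of -5.73 in arp6 (adjusted p = 1.54e-44) and -5.60 in arp6;brm (adjusted p = 8.2e-53), and BRM at -5.64 in brm (adjusted p = 4.2e-94) and -8.87 in arp6;brm (adjusted p = 2.41e-163), in the authors' deposited tables made with edgeR. The leaf genes RBCS1A, RCA and LHCB2.1 averaged 12.30, 10.49 and 6.41 log2 CPM in the arp6 table. The root gene PYK10 averaged 6.30 log2 CPM there and fell in each mutant, to log2 fold changes of -0.86 in arp6 (adjusted p = 0.00719), -0.83 in brm (adjusted p = 0.0107) and -1.37 in arp6;brm (adjusted p = 2.55e-05). RBCS1A and RCA fell in brm, at -0.61 (adjusted p = 0.015) and -0.86 (adjusted p = 0.000374). LHCB2.1 was called in no mutant, at -0.61 in arp6 (adjusted p = 0.0699), -0.35 in brm (adjusted p = 0.315) and 0.32 in arp6;brm (adjusted p = 0.232). Whether the makeup of the tissue differed with genotype was not tested. The seed genes CRA1 and At2S3 were listed in the arp6;brm table alone, at -3.57 and -3.72 log2 CPM.

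The arp6 peak lists stood apart from the others. The arp6 libraries held 7536706 and 6353934 tags, the brm libraries 11034796 and 5553946, and the WT libraries 10302678 and 15765419. Peaks numbered 3304 and 3997 in arp6, 15639 and 14300 in brm, and 9871 and 15262 in WT. The share of tags in peaks was 6.02% and 5.14% in arp6, 42.5% and 35.3% in brm, and 24.3% and 41.8% in WT. The fragment length used was 164 bp in both arp6 lists, 420 and 458 bp in brm, and 458 and 414 bp in WT. The second brm library was shallower than both arp6 libraries and had about as many peaks as the deepest WT library. The minimum enrichment in WT replicate 1 was 4.0-fold against input and 1.0-fold against the surrounding sequence, whereas it was 3.0-fold and 4.0-fold in the other lists. These peak lists chose the members, so the loss in arp6 is a description and carries no test. A peak that is missing because less H2A.Z was present and one that is missing because the arp6 ChIP was weakly enriched cannot be told apart here.

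Some members lay close to an arp6 peak that did not reach them. An arp6 peak lay within 100 bp of 33 members (0.708%), within 500 bp of 162 (3.47%) and within 5000 bp of 1957 (42.0%). Of the 2140 narrow regions with an arp6 peak, 1394 had one of replicate 1, 1215 one of replicate 2 and 469 one of both. At the width limit, 51 members were 1950 to 1999 bp wide, and 41 regions without an arp6 peak were 2000 to 2049 bp wide.

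Members were 501 to 1999 bp wide, with a median of 1023 bp and quartiles of 878 and 1284.75 bp, and covered 5105438 bp. Narrow regions with an arp6 peak were wider, with a median of 1262 bp. Chromosomes 1 to 5 held 1235, 755, 887, 710 and 1075 members. Members made up between 55.9% and 60.2% of the WT regions of each chromosome, so no chromosome stood out.

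Most members lay at an end of a protein-coding gene. An end of a coding gene span lay in 2973 of the 4662 members (63.8%, 95% Wilson interval 62.4 to 65.1%), of which 2194 held exactly 1 end. A further 1428 members (30.6%) lay wholly inside a gene, and 261 (5.60%) touched no coding gene. Narrow regions with an arp6 peak held a gene end more often (72.8%, interval 70.8 to 74.6%) and lay inside a gene less often (23.5%). Broad regions without an arp6 peak held a gene end in 88.8% of cases. The gene table gives no strand, so a start and an end of transcription cannot be told apart, and a wider region is more likely to reach a gene end. No share was computed for other stretches of the genome, so the 63.8% has no background beside it.

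Members touched 4903 coding genes, of which 100 held 2 members and 2 held 3. These genes spanned a median of 2216 bp, against 1995 bp for genes at narrow regions with an arp6 peak and 2078 bp for all 27444 coding genes. Their nuclear RNA was low. The median over the listed genes with a member was 1.55 log2 CPM in the arp6 table, against 0.76 at narrow regions with an arp6 peak, 2.5 for coding genes without a WT region and 2.1 for all coding genes. A level under 1 log2 CPM was found for 41.0% of genes with a member, 54.1% of genes at narrow regions with an arp6 peak and 28.2% of genes without a WT region.

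Nearly all members kept a peak in brm. A peak of at least 1 brm list overlapped 4431 of the 4662 members (95%, interval 94.4 to 95.6%), and a peak of both lists 3468 (74.4%, interval 73.1 to 75.6%). Replicate 1 of brm alone marked 668 members, replicate 2 alone marked 295, and 231 members (4.95%) had no brm peak. The brm peaks covered at least 50% of the width of 4304 members (92.3%). Among narrow regions with an arp6 peak, 98.6% had a peak of at least 1 brm list and 89.8% of both.

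The share with a brm peak went with width. Members of 501 to 799 bp had a peak of both brm lists in 49.4% of cases, and those of 1500 to 1999 bp in 87.1%. Within each width class the share for both lists was lower in members than in narrow regions with an arp6 peak. It was 49.4% against 60.4% at 501 to 799 bp, 73.8% against 84.2% at 800 to 1099 bp, 86.8% against 93.5% at 1100 to 1499 bp, and 87.1% against 94.5% at 1500 to 1999 bp. The intervals of the 2 groups did not overlap in the 3 wider classes and did in the narrowest, which held 96 regions with an arp6 peak. The intervals cover counting error over regions and not the spread between ChIP replicates. Just inside the width limit 90.2% of the 51 members had a peak of both brm lists, and just outside it 85.4% of the 41 regions did.

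**Figure D1:**
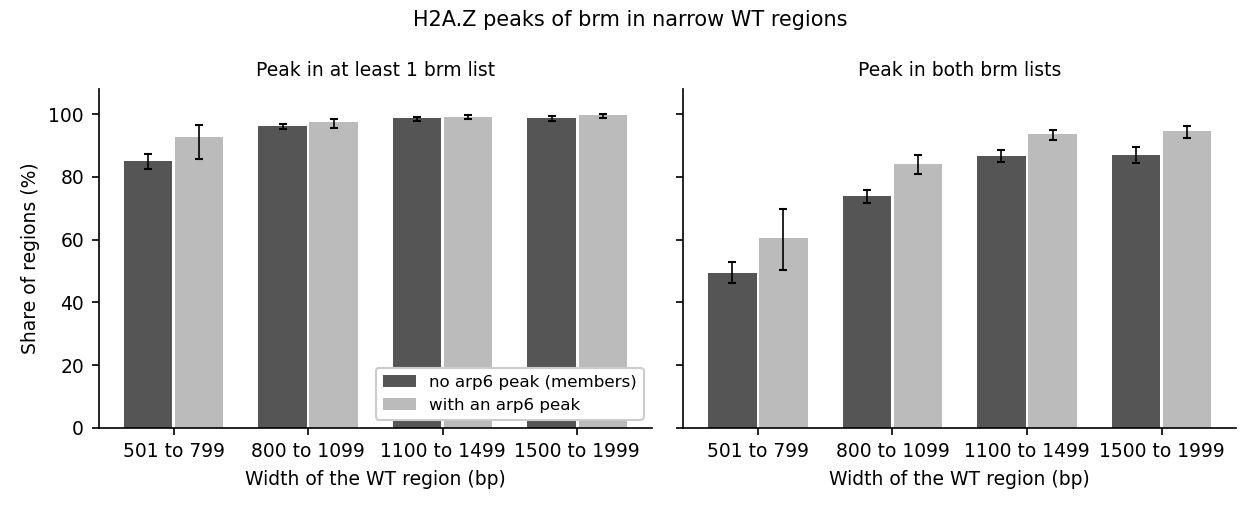
Share of narrow WT regions with an H2A.Z peak in at least 1 brm list (left) and in both (right), by width of the region in bp. Dark bars are members, light bars are narrow regions with an arp6 peak, and error bars are 95% Wilson intervals. Both groups rise with width, and members of 501 to 799 bp have the lowest share in both lists (49.4%).

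Nucleosomes were read from the authors' deposited tables of positions, which give for each position the signal at its summit, a fuzziness score (the spread of fragments around the position, higher for a less well placed nucleosome) and the distance between the mutant and the WT summit. Each member held 1 to 14 positions with a median of 6, and members held 30515 positions in the arp6 table, 30509 in the brm table and 30527 in the arp6;brm table. In WT, nucleosomes in members had a lower summit signal and lower fuzziness than outside WT regions. The median WT summit signal was 184 in members, against 200 outside WT regions, and the median WT fuzziness was 56.4 in members, against 57.4 outside. Narrow regions with an arp6 peak were close to members in both, with a WT signal of 186 to 188 and a fuzziness of 56.3. The WT signal was lowest at the middle of the members, with a median of 174 at the centre and 202 to 204 at 1200 bp on either side. Neighbouring summits were 170 bp apart in the median both in members and outside WT regions, in every genotype. The SD of this spacing was smaller in members than outside. It was 38.2 bp in arp6, 36.8 bp in brm, 37.4 bp in arp6;brm and 39.5 to 39.7 bp in WT within members, against 44.1, 43.2, 43.3 and 45.0 to 45.3 bp outside. Only gaps between 100 and 400 bp were counted, and in members both summits had to lie in the same member. Long gaps are thus cut off at the edges of these short regions, so the smaller SD cannot be read as a trait of members.

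Occupancy of the members was not lower in arp6. The median log2 fold change at the summit, mutant over WT, was 0.187 over member positions in arp6, against 0.149 outside WT regions. It was 0.282 in brm, against 0.206 outside, and 0.253 in arp6;brm, against 0.203 outside. The median summit signal in members was 192 for arp6, 210 for brm and 204 for arp6;brm, against 184 in WT. The values at a single base (point values) were smaller but in the same order, with medians of 0.058 for arp6, 0.165 for brm and 0.128 for arp6;brm within members, against 0.017, 0.077 and 0.074 outside. Since the summit fold change lies above 0 over the whole genome, each member value is read against its own background. The shift was not particular to regions without an arp6 peak. Narrow regions with one had medians of 0.213 for arp6, 0.295 for brm and 0.272 for arp6;brm, each above the member value. No spread between replicates is available to set beside these differences.

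The mutants differed in where the excess lay. In brm and arp6;brm it peaked at the middle of the members, whereas arp6 showed no such peak. Within 300 bp of a member's centre the median was 0.294 in brm, against 0.223 at positions 1000 to 2000 bp away that lay in no WT region. For arp6;brm these medians were 0.280 in the middle, against 0.209 away from it. For arp6 they were 0.179 in the middle, against 0.170 away from it. Positions at least 200 bp from a member's edge had a median of 0.297 in brm, against 0.250 for those within 200 bp of an edge, and of 0.274 in arp6;brm, against 0.214. In arp6 the same medians were 0.186 and 0.189.

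**Figure D2:**
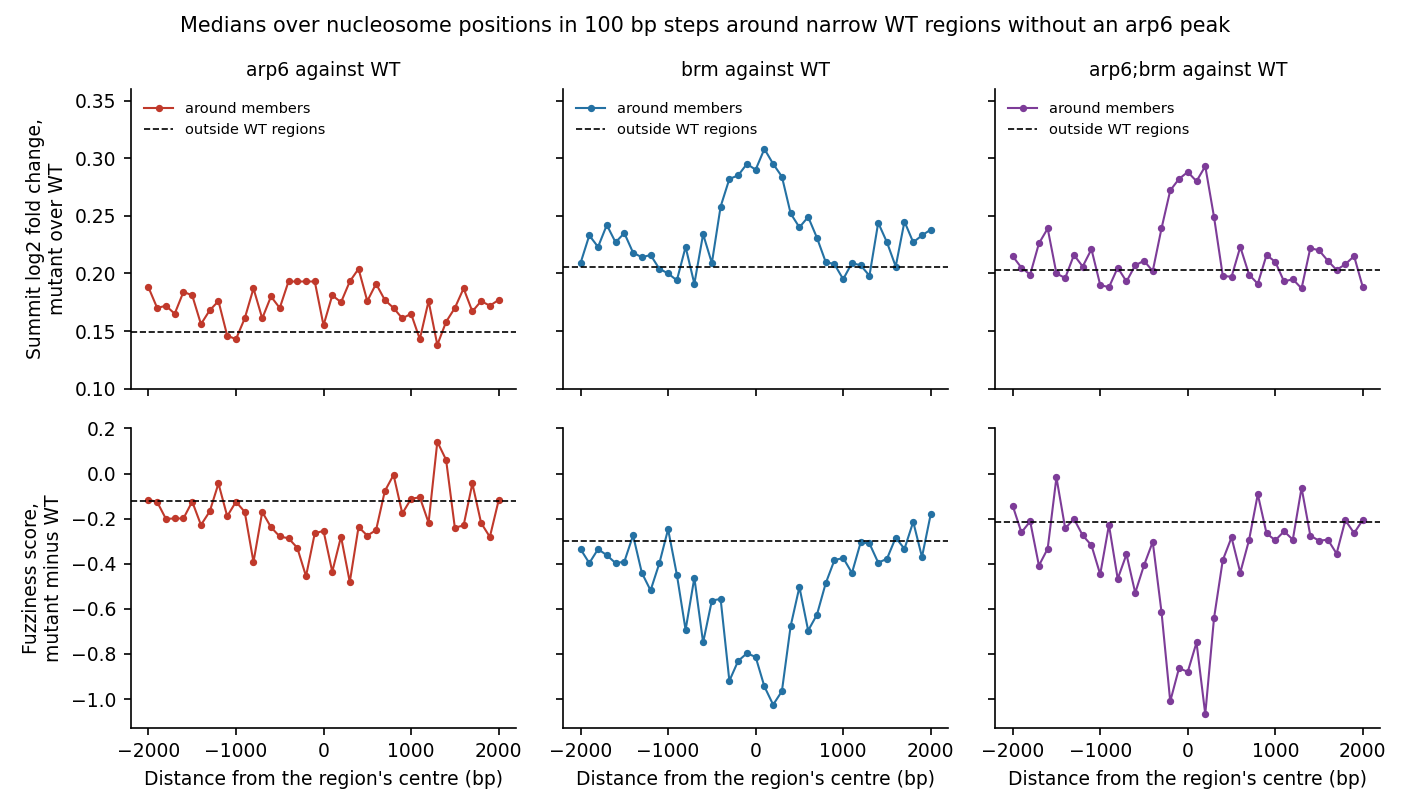
Median summit log2 fold change (top) and median difference in fuzziness score (bottom), mutant over or minus WT, over positions in 100 bp steps of distance (bp) from the centre of each member. Positions lay in that member or in no WT region, and a position near several members was counted for each. The dashed line is the median of all positions outside WT regions. In brm and arp6;brm the occupancy curve peaks and the fuzziness curve dips at the centre, while the arp6 occupancy curve at the centre (0.155) lies within the range of its flanks.

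The change went with the WT signal, and the members' WT signal was low. The WT signal that sets the classes is also the denominator of the fold change. A course along the classes can thus arise without a change in the mutant, and members are compared with the outside within a class. Positions with a WT summit signal under 150 had a median log2 fold change of 0.358 in arp6 within members, and positions of 250 or more one of -0.020. Outside WT regions these medians were 0.387 and -0.036. At a WT signal of 150 to under 200, member medians were 0.233 for arp6, 0.349 for brm and 0.313 for arp6;brm, against 0.223, 0.294 and 0.285 outside. At 200 to under 250 they were 0.129 for arp6, 0.235 for brm and 0.186 for arp6;brm, against 0.113, 0.170 and 0.166 outside. In these classes members lay slightly above the outside in arp6 and arp6;brm, and further above it in brm. At a WT signal under 150 the arp6 members lay below the outside value.

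The contrast between middle and surroundings also shrank at like WT signal. With a WT summit of 150 to 250, the median within 300 bp of the centre was 0.279 in brm, against 0.256 at 1000 to 2000 bp. In arp6;brm it was 0.254, against 0.232, and in arp6 it was 0.165, against 0.189. The middle of members was thus above its surroundings in brm and arp6;brm and below them in arp6, each by a few hundredths on the log2 scale. This choice of window and signal was made after the profile had been seen.

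**Figure D3:**
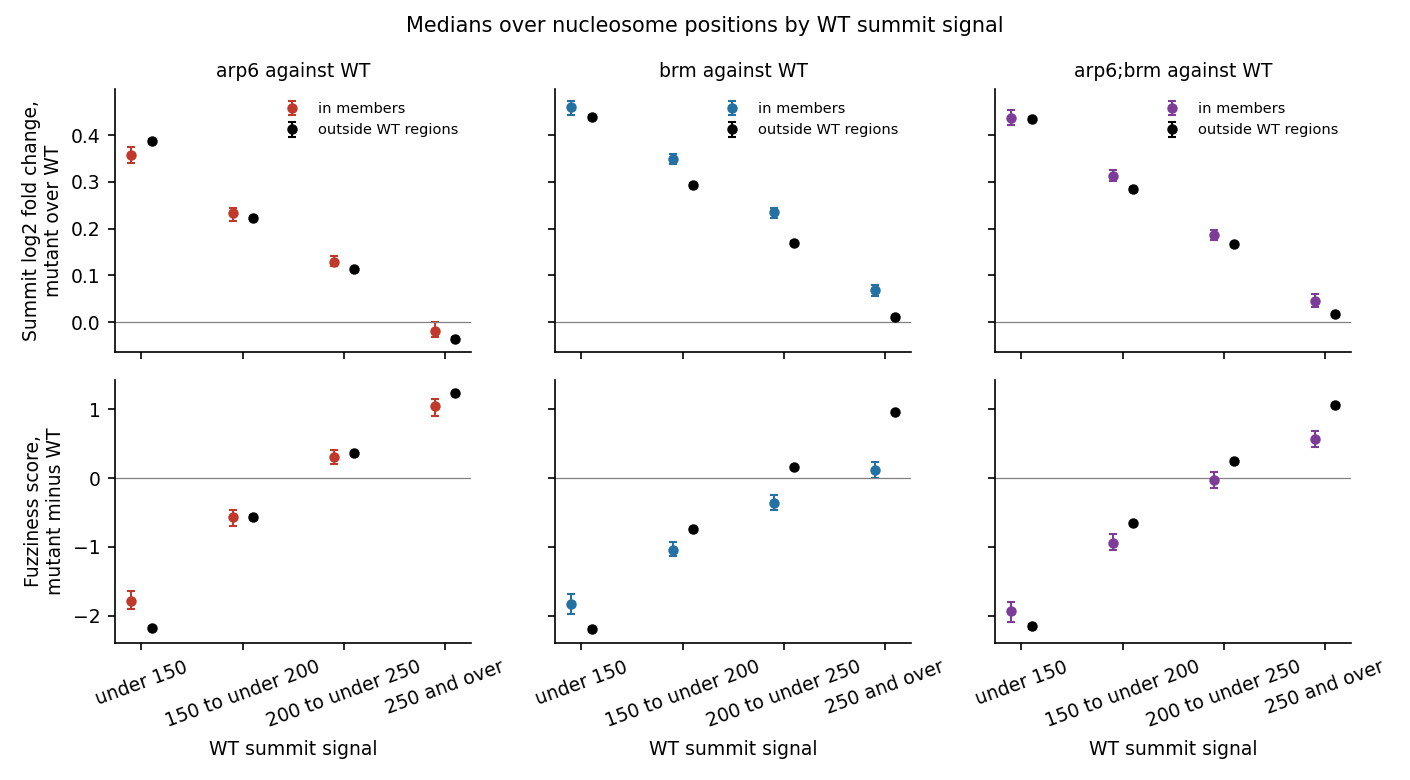
Median summit log2 fold change (top) and median difference in fuzziness score (bottom) by class of WT summit signal, for positions in members (coloured) and outside WT regions (black). Error bars are 95% binomial intervals of the median over positions. Both measures run along the WT signal in all 3 mutants, and in the classes of 150 and over the brm members lie above the outside occupancy and below the outside fuzziness. The WT signal is also the denominator of the fold change.

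The median fuzziness of members was lower than in WT in every mutant, most in brm. The median difference, mutant minus WT, was -0.339 in arp6, against -0.120 outside WT regions. It was -0.822 in brm, against -0.300 outside, and -0.665 in arp6;brm, against -0.214 outside. Narrow regions with an arp6 peak had similar medians, of -0.394 for arp6, -0.880 for brm and -0.609 for arp6;brm. At a WT signal of 200 to under 250 the member medians were 0.307 for arp6, -0.368 for brm and -0.026 for arp6;brm, against 0.365, 0.160 and 0.247 outside. The arp6 difference in this class had the opposite sign to its overall median, within members and outside. At 150 to under 200 the member medians were -0.572, -1.041 and -0.942 in the same order, against -0.561, -0.747 and -0.656 outside. Under 150 the member medians lay above those outside, at -1.788, -1.831 and -1.930, against -2.178, -2.195 and -2.151 outside. The lower overall median of members in arp6 was thus not seen in every class of WT signal. In arp6 at a WT signal of 150 to under 250, the median was -0.044 within 300 bp of a member's centre, against -0.144 at 1000 to 2000 bp. Over members, the median fuzziness difference was below 0 in 2683 members (57.6%) for arp6, 3120 (66.9%) for brm and 2938 (63.0%) for arp6;brm. Single positions in members were below 0 in 53.2% of cases for arp6, 57.7% for brm and 56.0% for arp6;brm. Outside WT regions these shares were 51.2%, 53.1% and 52.2%, and at narrow regions with an arp6 peak 53.7%, 58.0% and 55.5%.

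Calls of changed fuzziness, at the authors' FDR under 0.05, leaned the same way. In arp6, 4.00% of member positions had higher and 6.01% lower fuzziness, against backgrounds of 3.87% and 4.83% over all nuclear positions. In brm, 3.34% were higher and 8.12% lower, against backgrounds of 3.36% and 5.53%. In arp6;brm, 3.92% were higher and 7.90% lower, against backgrounds of 3.74% and 5.55%. The share with higher fuzziness was near the background in all 3 mutants, and the share with lower fuzziness was above it in all 3.

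Shifts of at least 50 bp were less common in members than outside WT regions, but shifts of at least 20 bp were not. The summit lay at least 50 bp from the WT summit at 13.3% of member positions for arp6, 12.4% for brm and 12.9% for arp6;brm, against 16.2%, 15.9% and 15.6% outside WT regions. Other WT regions had similar shares, of 13.6%, 12.5% and 12.6% at narrow regions with an arp6 peak and 12.7%, 12.0% and 12.5% at broad regions without one. The distance in the authors' deposited tables is unsigned, so upstream and downstream moves could not be separated. At a WT signal under 150 the members' shares were instead the higher ones, at 12.9% for arp6, 12.5% for brm and 12.4% for arp6;brm, against 11.0%, 11.0% and 10.6% outside. With a limit of 20 bp the shares were 45.1%, 45.0% and 45.2% in members, against 44.1%, 44.5% and 43.9% outside. The summit had not moved at 35.4%, 33.9% and 34.8% of member positions, against 40.6%, 39.1% and 40.1% outside.

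Calls of changed occupancy, at the authors' FDR under 0.05 and a change of 1 or more in either direction on the log2 scale, were few. In arp6, 1.00% of member positions were called higher and 2.72% lower, against backgrounds of 1.06% and 4.09% over all nuclear positions. In brm, 3.53% were called higher and 1.06% lower, against backgrounds of 2.53% and 1.65%. In arp6;brm, 2.36% were called higher and 2.26% lower, against backgrounds of 1.93% and 2.75%. Members thus had fewer lower calls than the background in all 3 mutants, and more higher calls in brm and the combined mutant. The excess of higher calls varied with the WT signal. In brm the member share lay above that outside WT regions in every class, but only at 9.01% against 8.81% under 150. In the combined mutant it lay below the outside under 150 (5.88% against 6.50%) and from 250 (0.104% against 0.190%). It lay above the outside at 150 to under 200 (1.46% against 1.24%) and 200 to under 250 (0.406% against 0.331%). Narrow regions with an arp6 peak had fewer lower calls than members, at 0.908% for arp6, 0.874% for brm and 1.07% for arp6;brm. Of their positions, 3.63% were called higher in brm and 2.21% in arp6;brm. DNA that is missing in arp6 can give no arp6 peak, so the arp6 contrast is tied to how these regions were chosen.

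Deletion calls of arp6 moved with the lower calls. They touched 101 members (2.17%), 40 of them on chromosome 2, against 0.841% of narrow regions with an arp6 peak. These 101 members held 407 of the 829 lower-called positions of arp6 (49.1%) and 226 of the 689 of arp6;brm (32.8%), but 7 of the 324 of brm. In them, 57.0% of positions were called lower in arp6, 31.1% in the combined mutant and 0.966% in brm. Their median summit signal was 16.0 in arp6, 176 in the combined mutant and 228 in brm, against 200 in WT. Chromosomes differed in the combined mutant. On chromosome 2, 36 member positions were called lower in it, both with and without the members with a deletion call. Those members thus held no such call there. In arp6 the count on chromosome 2 fell from 293 to 112 without them. In the combined mutant it fell from 201 to 125 on chromosome 1 and from 153 to 113 on chromosome 3. On chromosomes 4 and 5 it fell from 80 to 50 and from 219 to 139. In the 4561 members without a deletion call, 1.42% of positions were called lower in arp6 and 1.55% in arp6;brm. A missing peak or nucleosome in a member that lacks its DNA is no measure of H2A.Z or of occupancy.

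**Figure D4:**
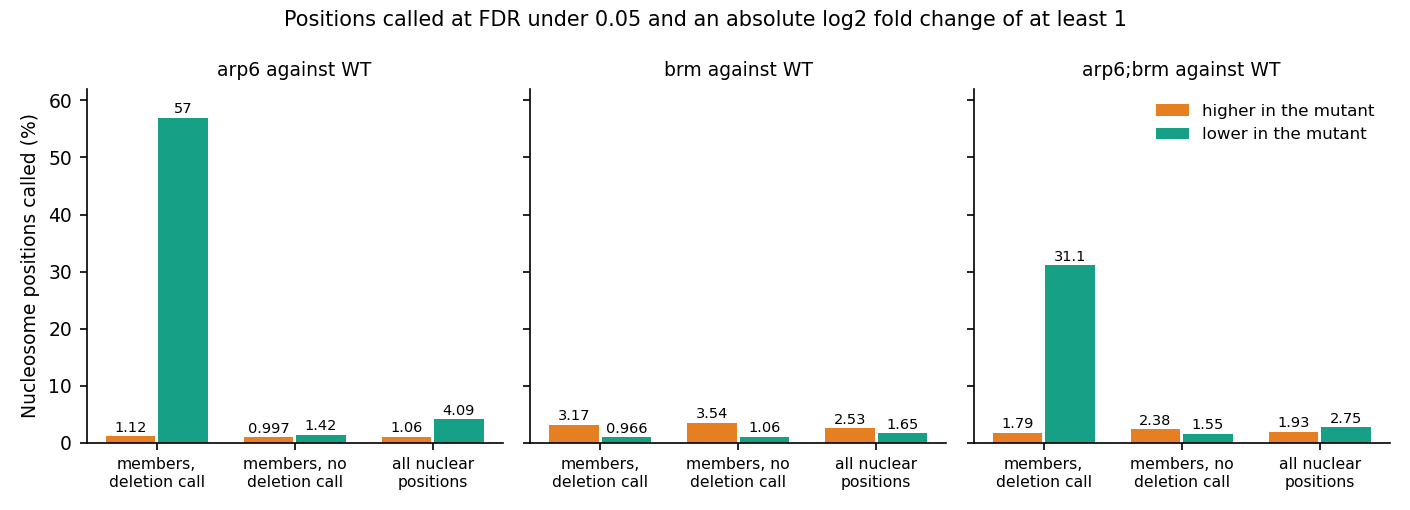
Share of nucleosome positions (%) called higher (orange) or lower (green) in each mutant against WT, in members with an arp6 deletion call, in the other members and over all nuclear positions. Pooled over chromosomes, lower calls reach 57.0% in arp6 and 31.1% in the combined mutant within members with a deletion call. They stay at 1.42% and 1.55% in the other members.

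Most members had a median above 0, as did positions over the genome. The median log2 fold change over a member's positions was above 0 in 3681 members (79.0%) for arp6, 4188 (89.8%) for brm and 4056 (87.0%) for arp6;brm. Single positions in members were above 0 in 65.2% of cases for arp6, 72.8% for brm and 70.6% for arp6;brm, against 62%, 67.1% and 66.9% outside WT regions. The central 90% of member medians ran from -0.30 to 0.58 in arp6, from -0.10 to 0.65 in brm and from -0.17 to 0.64 in arp6;brm. A median of -1 or below was found in 84 members in arp6, 59 of them with a deletion call, in 45 members in arp6;brm, 30 of them with one, and in no member in brm. A median above 1 was found in 6 members for arp6, 6 for brm and 8 for arp6;brm. By chromosome, medians over the positions of members without a deletion call ran from 0.176 to 0.206 in arp6, from 0.272 to 0.289 in brm and from 0.247 to 0.263 in arp6;brm.

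Median occupancy changes were close together whether or not a member had a brm peak. Members with no brm peak, a peak of 1 list and peaks of both lists had median log2 fold changes of 0.278, 0.281 and 0.283 in brm, of 0.180, 0.193 and 0.185 in arp6, and of 0.259, 0.258 and 0.251 in arp6;brm. Fuzziness differences were -0.871, -0.800 and -0.827 in brm and -0.855, -0.711 and -0.650 in arp6;brm in the same order. The median WT signal was 194, 188 and 182, and the share of positions called lower in brm was 0.445%, 0.900% and 1.13%. Members inside a gene had slightly higher occupancy changes than members at a gene end, at 0.198 against 0.185 in arp6, 0.301 against 0.272 in brm and 0.266 against 0.251 in arp6;brm. The 4 width classes spanned 0.179 to 0.191 in arp6, 0.276 to 0.293 in brm and 0.249 to 0.254 in arp6;brm.

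Nuclear RNA of the members' genes was compared next. Gene spans of any kind overlapping a member numbered 5404, of which the authors' deposited tables list 4049 for arp6, 4040 for brm and 4098 for arp6;brm. A gene was called at an adjusted p under 0.05 by edgeR as the authors ran it. In arp6, 116 genes rose (2.86%) and 114 fell (2.82%), against backgrounds of 3.01% and 3.02% over all listed genes. In brm, 226 rose (5.59%) and 251 fell (6.21%), against backgrounds of 7.62% and 6.14%. In arp6;brm, 340 rose (8.30%) and 206 fell (5.03%), against backgrounds of 6.16% and 7.14%. The shares in arp6 were near the background. Genes of members rose less often than the background in brm and more often in arp6;brm. Their median level was 1.44 log2 CPM in the brm table, against 1.96 over all its genes. Median log2 fold changes over the members' genes were -0.006 for arp6, -0.095 for brm and 0.065 for arp6;brm, against -0.018, -0.018 and 0.005 over all listed genes. Of the genes at narrow regions with an arp6 peak, 6.22% rose in brm and 10.4% in arp6;brm.

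In brm the calls went with where the member lay in the gene. Of the 1259 listed genes that a member overlapped without reaching a gene end, 123 rose (9.77%, interval 8.25 to 11.5%) and 68 fell (5.4%). Of the 2781 listed genes with an end in a member, 103 rose (3.70%, interval 3.06 to 4.47%) and 183 fell (6.58%). In arp6;brm, 129 of 1267 genes overlapped inside rose (10.2%), against 211 of 2831 genes with an end in a member (7.45%). In arp6 the shares that rose were 3.25% and 2.69%. The median level of both groups was similar in the brm table, at 1.61 log2 CPM for genes overlapped inside and 1.37 for genes with an end in a member. With genes of at least 1 log2 CPM, the brm shares that rose were 14.1% for genes overlapped inside and 5.17% for genes with an end in a member, against a background of 10.9% over all genes at that level. At that level 9.91% of all the members' genes fell in brm, against a background of 8.62%.

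Median occupancy in a member showed little relation to the call of its gene. Members whose gene rose, fell or was not called had median log2 fold changes of 0.268, 0.269 and 0.278 in brm, and of 0.229, 0.260 and 0.259 in arp6;brm. In arp6 they were 0.132 over 117 members whose gene rose, 0.205 over members whose gene fell and 0.185 over 3372 members with no call. The interval of the first, 0.083 to 0.193, held the value of the last. Shares of called positions differed more. In arp6, 3.14% of positions were called higher and 2.77% lower where the gene rose (25 and 22 of 795). These shares were 1.81% and 1.95% where it fell, and 0.904% and 1.24% with no call. In arp6;brm, lower calls made up 1.89% where the gene rose, 3.65% where it fell and 1.41% with no call. In brm they made up 1.44%, 1.69% and 1.15%. The cause was not tested.

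Of the 2150 genes of members at 1 log2 CPM or more in all 3 tables, 8 rose in all 3 (0.372%) and 13 fell in all 3 (0.605%), against backgrounds of 0.26% and 0.649% over all 13098 such genes. The shares were near the background. The 3 tables share the WT libraries, so the 3 calls are not independent. The 6 of these genes with the largest smallest change comprised 4 that rose and 2 that fell. All fold changes and adjusted p-values that follow are from the authors' deposited tables.

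IGMT2, an indole glucosinolate O-methyltransferase of a defence pathway, rose by 2.48 in arp6 (adjusted p = 5.36e-06), 2.52 in brm (1.06e-06) and 2.63 in arp6;brm (4.83e-11) on the log2 scale. Its member (chr1:7396104-7396760, TAIR10) lay inside the gene and had a brm peak in replicate 1 alone. The median summit signal over its 4 positions was 204 in brm, against 153 in WT, and 154 in arp6;brm, against 153. In arp6 the median log2 fold change was 0.18, and 1 of the 4 positions was called lower there and in arp6;brm. BGL2 (PR2), a glucanase induced in pathogen defence, rose by 2.20 in arp6 (adjusted p = 0.0067), 2.17 in brm (0.0281) and 3.27 in arp6;brm (2.76e-07). Its member (chr3:21188556-21189848) lay inside the gene and had peaks of both brm lists. Its summit signal was 220 in arp6, against 154 in WT, 212 in brm, against 157, and 204 in arp6;brm, against 154, with 1 position called higher in arp6.

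DFR, the dihydroflavonol reductase of anthocyanin synthesis, fell in all 3 mutants. Its log2 fold change was -1.59 in arp6 (adjusted p = 0.00535), -4.93 in brm (3.83e-08) and -3.05 in arp6;brm (2.31e-17). Its member (chr5:17164686-17166035) held an end of the gene and peaks of both brm lists. The summit signal was 199 in arp6, against 183 in WT, 242 in brm, against 184, and 247 in arp6;brm, against 194. Median occupancy was thus a little higher over a gene whose RNA was lower, with 1 position called lower in arp6;brm. AT1G18910 rose by 2.37, 1.38 and 1.58 and AT1G16500 by 1.17, 1.71 and 2.03 in arp6, brm and arp6;brm, while AT1G68650 fell, to -1.30, -1.39 and -2.69 (adjusted p of 0.0345 or less in each of these 9 comparisons). The member of AT1G18910 lay 113 bp and that of AT1G16500 980 bp from an arp6 deletion call, and part of their positions (1 of 5 and 2 of 7) were called lower in arp6.

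Of 42 listed genes of pathways linked to ARP6 or BRM, 8 held a member, against a background of 4903 of all 27444 coding genes. The count for the lists was thus near the background. The 8 genes were 1 of 10 SWR1 and H2A.Z genes, 1 of 10 SWI/SNF genes, 2 of 6 flowering genes, 3 of 10 clock genes and 1 of 6 heat genes. Only CCA1 of these 8 genes was called in any table. The RNA calls among all genes of the lists, beyond the mutated genes themselves, were as follows. In arp6, 0 genes rose and SVP, CCA1 and PRR5 fell. In brm, FLC and TOC1 rose and SVP and CCA1 fell. In arp6;brm, FLC rose and SWC6, HTA8, HTA9, SVP and PRR5 fell.

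The clock genes held 5 members. CCA1, a morning-expressed MYB factor of the clock, had 2 members holding a gene end (chr2:19245505-19247024 and chr2:19248902-19249916, the second shared with DUF4). Its RNA fell to a log2 fold change of -2.05 in arp6 (adjusted p = 0.0206) and -3.49 in brm (adjusted p = 0.00646), and was at -1.04 in arp6;brm (adjusted p = 0.174), at 0.22 to 0.62 log2 CPM, in the authors' deposited tables. The first CCA1 member had a summit signal of 213 for arp6, 220 for brm and 234 for arp6;brm, against 205 in WT, with 1 position called lower in arp6;brm. The second had one of 304 for arp6, 300 for brm and 296 for arp6;brm, against 238 to 244 in WT. LHY, the paralogue of CCA1, held 2 members (chr1:33852-34762 and chr1:36123-38103), the first with a brm peak of replicate 2 alone and the second with peaks of both lists. Its RNA was at -0.44, -1.61 and -0.80 in arp6, brm and arp6;brm, with adjusted p of 0.459 or more in each of the authors' deposited tables. PRR9, a clock repressor of the pseudo-response regulator family, held 1 member (chr2:19232497-19233808) 692 bp from an arp6 deletion call. Its summit signal was 216 for arp6, 256 for brm and 258 for arp6;brm, against 210 in WT.

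The members at remodeller genes showed no common change. PIE1, the ATPase of SWR1, had a member inside the gene (chr3:4065327-4066227) with a brm peak in replicate 1 alone. Its summit signal was 118 for arp6, 170 for brm and 170 for arp6;brm, against 148 in WT, and 1 of its 5 positions was called lower in arp6. ARP7, an actin-related protein of SWI/SNF complexes, shared a member with the proteasome gene PBF1 (chr3:22473560-22474778). The summit signal there was 166 in arp6, against 148 in WT, 155 in brm, against 130, and 176 in arp6;brm, against 130. In arp6;brm 1 of its 8 positions was called higher, at 196 against 72.0 in WT. PIE1 RNA was at 0.32, 0.03 and 0.48 and ARP7 RNA at 0.09, -0.08 and -0.05 in arp6, brm and arp6;brm, none called in the authors' deposited tables. PBF1 RNA was at -0.19, -0.25 and -0.48 there, and called in arp6;brm alone (adjusted p = 0.0407 by edgeR).

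AGL20 (SOC1), an activator of flowering, held a member at a gene end (chr2:18810007-18811165) with peaks of both brm lists. Its summit signal was 174 for arp6, 160 for brm and 182 for arp6;brm, against 162 to 174 in WT, and 1 of its positions was called lower in arp6;brm, at 38.0 against 120 in WT. MAF5, a flowering repressor of the FLC clade, held a member (chr5:25997396-25998273) with a brm peak in replicate 1 alone. The summit signal was 146 for arp6, 185 for brm and 180 for arp6;brm, against 160 in WT, and 1 of its positions was called lower in brm, at 62 against 164 in WT. HSP101, a chaperone needed for heat tolerance, held a member (chr1:27939357-27940397) with peaks of both brm lists and a summit signal of 162 for arp6, 160 for brm and 258 for arp6;brm, against 161 to 164 in WT. None of the 6 positions at HSP101 was called in any mutant.

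Around several of the members with the most extreme arp6 medians that touched no deletion call, the signal was changed over longer stretches. Their fold changes chose them and carry no test. The 2 members of MYB47, a MYB transcription factor gene, had the highest medians. In the first (chr1:6450443-6451214), the 4 positions had summit signals of 534, 806, 1238 and 1150 in arp6, against 134, 184, 256 and 190 in WT. All 4 were called higher, with log2 fold changes from 2.02 to 2.60. In arp6;brm its 3 positions had 674, 832 and 1272, against 134, 184 and 256 in WT. In brm its 4 positions had 118, 214, 234 and 434, against 66.0, 134, 184 and 256 in WT, and none was called.

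The second MYB47 member (chr1:6452184-6453196) had median signals of 622 in arp6, 648 in arp6;brm and 188 in brm, against 172, 172 and 132 in WT. Its position farthest to the right had 60 in arp6, against 104 in WT. The higher signal reached beyond the MYB47 members, and whether other WT H2A.Z regions lay in these stretches was not examined. From 2000 to 5000 bp to the left of the first member the median signal was 818 in arp6, 918 in arp6;brm and 198 in brm, against 168, 174 and 164 in WT, whereas 10000 to 20000 bp to the left it was 226 in arp6, against 212 in WT. From 2000 to 5000 bp to the right of the second member it was 176 in arp6, against 154 in WT. MYB47 RNA was higher by 4.24 in arp6 (adjusted p = 1e-46) and 3.27 in arp6;brm (adjusted p = 3.1e-19), and at 1.5 in brm (adjusted p = 0.123), in the authors' deposited tables. The genomic DNA was used here through its deletion calls alone, so more copies of this DNA and more nucleosomes on it cannot be told apart.

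A member at AT3G05350, AT3G05365 and the lncRNA gene AT3G01625 (chr3:1533497-1535248) had 8 of 9 positions called higher in arp6, with median signals of 438 in arp6, 342 in arp6;brm and 230 in brm, against 210 in WT. From 2000 to 5000 bp to its left the median was 380 in arp6, 316 in arp6;brm and 210 in brm, against 166, 164 and 184 in WT. To its right, within 2000 bp, it was 188 in arp6, against 204 in WT. AT3G05350 RNA rose by 1.03 in arp6 (adjusted p = 1.4e-07) and 1.28 in arp6;brm (adjusted p = 7.46e-14) and was at -0.06 in brm (adjusted p = 0.925), in the authors' deposited tables.

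In the 3 members with the lowest arp6 medians, most positions had little or no signal in arp6 and arp6;brm. AT5G33330 had a member (chr5:12592523-12593411) in which 6 of 7 positions were listed at 0 in arp6 and in arp6;brm and the last at 32.0 and 8.00, against 114 to 286 in WT. In brm its 5 positions had 232 to 350, against 154 to 286 in WT. The nearest deletion call was 8022 bp away, and the signal within 2000 bp on either side had medians of 180 and 196 in arp6, against 202 and 214 in WT. From 5000 to 20000 bp to its left the signal was listed at a median of 0 in arp6. The member at AT5G49870 (chr5:20270275-20272103) had a median of 0 in arp6, 8.00 in arp6;brm and 266 in brm, against 267, 210 and 216 in WT, and lay 874 bp from a deletion call. Its outermost position on the left in arp6;brm kept its signal, at 170 against 142 in WT. The signal was also listed at a median of 0 in arp6 from 2000 to 5000 bp on both sides of it. The member at KCR2, named for a ketoacyl reductase of fatty acid elongation, and its neighbours AT1G24475 and AT1G24480 (chr1:8676215-8677491) had medians of 4.00 in arp6, 10 in arp6;brm and 212 in brm, against 196, 196 and 158 in WT. Its signal was low over the left part alone: the 3 positions there had 0 to 4.00 in arp6, against 96.0 to 196 in WT, and the other 2 had 168 and 206, against 204 and 216. In arp6;brm those 2 had 230 and 68.0, against 204 and 216. The RNA tables list AT5G33330, AT1G24475 and AT1G24480 in no comparison and AT5G49870 in brm alone.

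**Figure D5:**
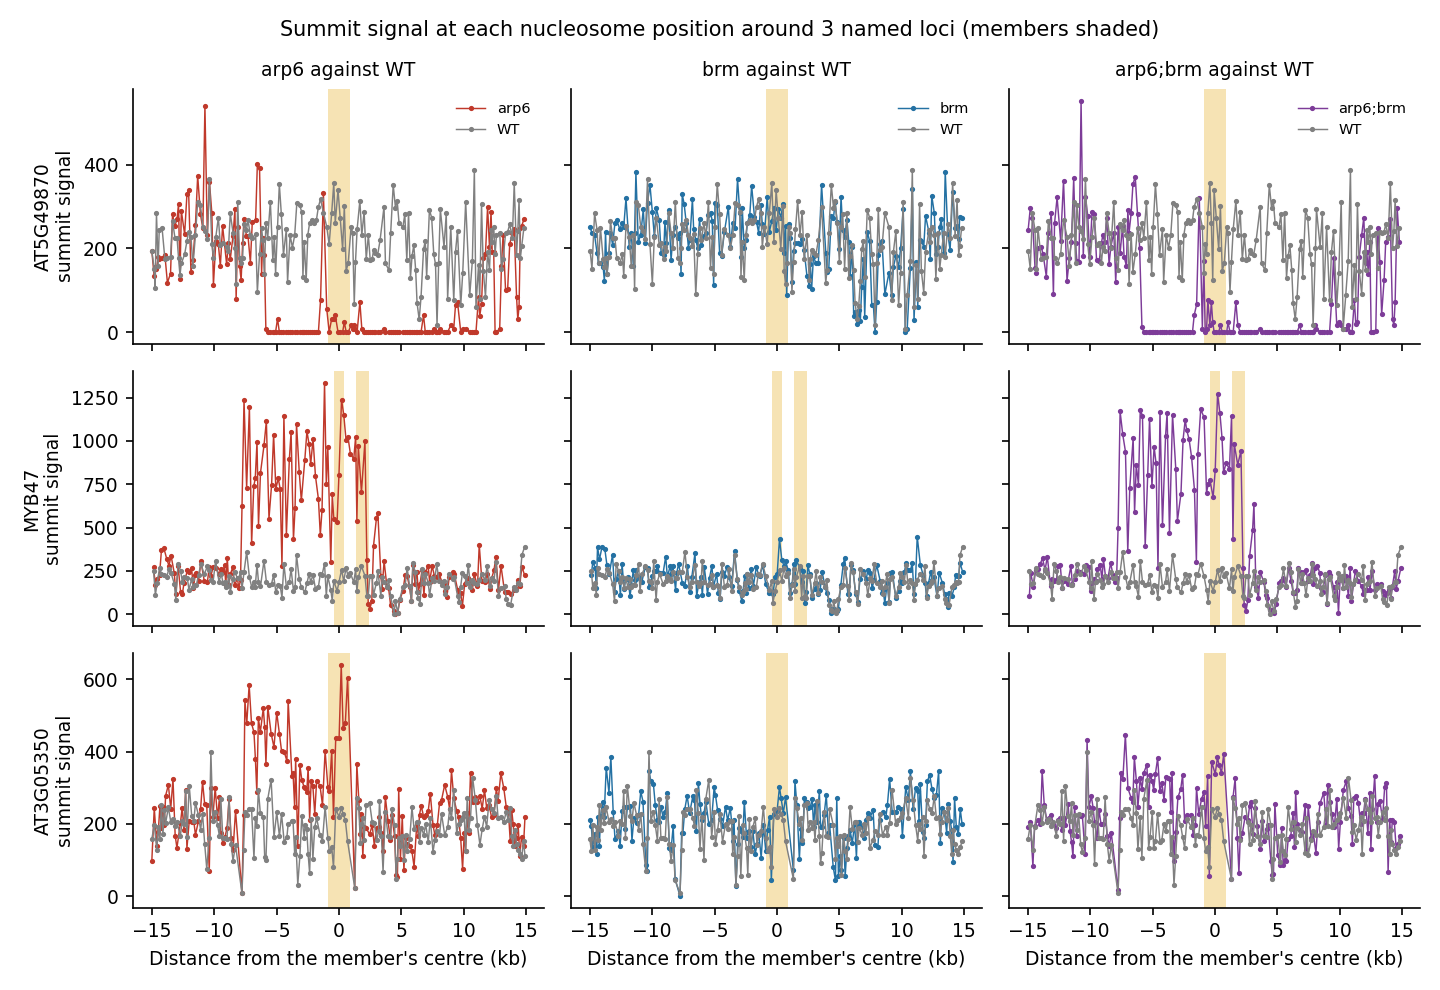
Summit signal of each nucleosome position in the mutant (coloured) and in WT (grey) within 15 kb of the centre of the member at AT5G49870, the first of MYB47 and that of AT3G05350, by distance in kb, with the named members shaded. At AT5G49870 the signal lies at or near 0 over several kb in arp6 and arp6;brm, and at MYB47 and AT3G05350 it is raised over several kb in these mutants and not in brm.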

How the data were processed

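The members, gene lists and rules for named genes were chosen with earlier results of these data known. Per the file headers, the authors ran HOMER on every H2A.Z library separately, with input as control, and the lists give positions with a constant score, so a stricter threshold could not be applied. The submitters' processing notes name BWA, Bowtie2, TopHat2, SAMtools, HTSeq and edgeR and the build TAIR10. The authors' deposited MNase-seq tables give signal at the summit, log2 fold changes, fuzziness scores and FDR values (adjusted p-values) for 1 pooled data set per genotype, and the fragments had been selected above 400 bp, per the labels' protocols. Their deposited RNA tables give log2 fold changes, average log2 CPM and adjusted p-values. The tool behind the MNase-seq tables is not given in the sources used here.

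A position lay in a member if its centre did. Organelle positions and positions without a WT summit (for shifts) were left out. Genes came from RefSeq's table for TAIR10.1, whose coordinates are not printed. WT signal around gene ends had the same course on all 5 chromosomes, so both builds were used together. The design had foreseen the 5′ end of a gene in the member. Since the table has no strand, any overlap of the gene span was used. Named members were the 3 lowest and 3 highest arp6 medians without a deletion call (at least 3 positions, WT signal of at least 50), the 6 genes called alike in all 3 RNA tables with the largest smallest change (at least 1 log2 CPM), and members at listed genes. Shares carry 95% Wilson intervals, and medians 95% binomial intervals. These cover counting error only. Python 3.11.15, numpy 2.4.6, pandas 2.3.3, scipy 1.17.1 and matplotlib 3.10.9 were used, and the overlap and summary steps were tested on simulated data.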

Additional observations from a re-analysis of the deposited data

How the results depend on the processing

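Of the values recomputed under alternatives, 196 stayed within 1.5 times a count or share of calls, or within the interval of another value, 34 did not, and none changed sign. A width under 1000 bp gave 2060 members, a brm peak in 90.9%, an occupancy median of 0.270 in brm, fuzziness medians of -0.899 in brm and -0.748 in arp6;brm, and shifts at 12.0% in both. Without the members with a deletion call, arp6 occupancy was 0.197 and its lower calls 1.42%. The point value gave occupancy medians of 0.058 for arp6, 0.165 for brm and 0.128 for arp6;brm. Counting positions whose nucleosome core touched a member, occupancy was 0.273 in brm and 0.244 in arp6;brm. A shift of at least 20 bp was found at 45.1%, 45.0% and 45.2%, against 44.1%, 44.5% and 43.9% outside WT regions. Requiring brm peaks to cover 50% of a member gave 92.3%. Genes of members at 1 log2 CPM or more fell in 9.91% of cases in brm, against 8.62% of all genes at that level. Of the alternatives chosen after seeing the data, a WT signal from 150 to 250 gave fuzziness medians of -0.125 for arp6, -0.710 for brm and -0.506 for arp6;brm and an occupancy of 0.291 in brm, and genes with an end in the member rose in 3.70% of cases in brm. Requiring no arp6 peak within 500 bp moved no value past these limits.

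Leaving out 1 replicate gave 5408 to 10736 members, most without WT replicate 1 (10736), a brm peak in 80.7% to 95.7%, occupancy medians of 0.183 to 0.197 in arp6, 0.277 to 0.294 in brm and 0.250 to 0.266 in arp6;brm, and shifts of 12.4% to 12.8% in brm. Where a value moved by definition (fewer members, another limit) this follows from the alternative, and for the rest the cause was not tested. No paired analysis was possible because the MNase-seq data were pooled per genotype, the RNA tables hold no value per library and the peak lists give no test. A stricter peak threshold was not run, since the lists hold no scores. Pooled tables without depth limit what can be said of small medians.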
